A study of Mus musculus with 22 samples.

Results

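NFKBIE-wt TCL1-355 TKO leukemia cells recovered from the peritoneal cavity (PC) of mice were compared with the same line kept in vitro. The members were the 4 NFKBIE-wt PC libraries and the 3 NFKBIE-wt in vitro libraries, which are 7 of the 22 libraries sequenced, chosen by their sample titles, where NFKBIE-wt cells are called MOCK. TCL1-355 TKO is a mouse chronic lymphocytic leukemia line from a TCL1 transgenic mouse, in which the human TCL1 oncogene is expressed in B cells. All 22 samples come from this 1 line, which binds phosphatidylcholine through its B-cell receptor and carries biallelic loss of the cell-cycle inhibitor genes Cdkn2a and Cdkn2b among its engineered lesions. NFKBIE-wt cells went through mock editing, whereas NFKBIE-ko cells were edited with Cas9 at Nfkbie, which encodes the NF-κB inhibitor IκBε. Per the study's methods, each genotype was propagated in 1 C57BL/6 mouse, injected intraperitoneally into C57BL/6 recipients, and recovered by lavage of the PC or from the spleen without purification, so that host cells were sequenced too. The in vitro samples were cells from the spleens of different mice that had then been kept in separate cultures. Recipients of edited leukemia cells in the study were 2 to 3 months old per its methods, the sex of those used for these libraries was not given in the sources used here, and the labels give blood as the tissue of every sample. The question of the comparison is which transcripts the leukemia and its surroundings gain, and which they lose, when the cells grow in the PC in place of a culture dish.

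The PC is lined by mesothelium and holds resident macrophages, which take up debris and lipid, together with B-1 cells, the CD5+ B cells that the TCL1 leukemia resembles. Cells in culture meet neither the macrophages nor the lining, and take their lipids from serum or make them. Cholesterol synthesis is switched on as a unit by the transcription factor SREBP2 when sterol in the membrane of the endoplasmic reticulum is low, and genes of the G2 and M phases of the cell cycle are switched on as a unit through CCAAT boxes and CHR elements in their promoters.

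The summed estimated counts of the 7 libraries lay between 24335596 and 26317997. Levels are given as CPM, the count of a gene relative to the library total after TMM scaling over the 22 libraries, and a gene is called where its adjusted p is under 0.05 and its log2 fold change is beyond 1 in edgeR's quasi-likelihood test. Cd79a, the signalling chain of the B-cell receptor, was read at 885, 883, 820 and 925 CPM in the PC and at 932, 1143 and 993 CPM in the cultures, so all 7 libraries carried their B-lineage label. Nfkbie was read at 67.3, 81.4, 76.6 and 91.2 CPM in the PC and at 117, 141 and 54.3 CPM in the cultures, and was not called. In the NFKBIE-ko samples its mean was 53.9 CPM in the PC and 54.7 CPM in vitro, which does not test the edit, since a small deletion can leave the transcript in place.

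Of the libraries, 2 stood apart from their labels before any comparison. Over 13537 genes, the log2 CPM of the library labelled NFKBIE-wt in vitro 3 correlated at 0.973 to 0.981 with NFKBIE-wt spleens 1 to 3 and at 0.911 to 0.934 with NFKBIE-wt cultures 1 and 2. The library labelled NFKBIE-wt spleen 4 correlated at 0.977 to 0.982 with NFKBIE-wt cultures 1 and 2 and at 0.923 to 0.944 with NFKBIE-wt spleens 1 to 3. These values describe the libraries across genes, which are not independent. Both libraries were kept under their labels, and main results are given with and without the former, which is called culture 3 here.

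**Figure D1:**
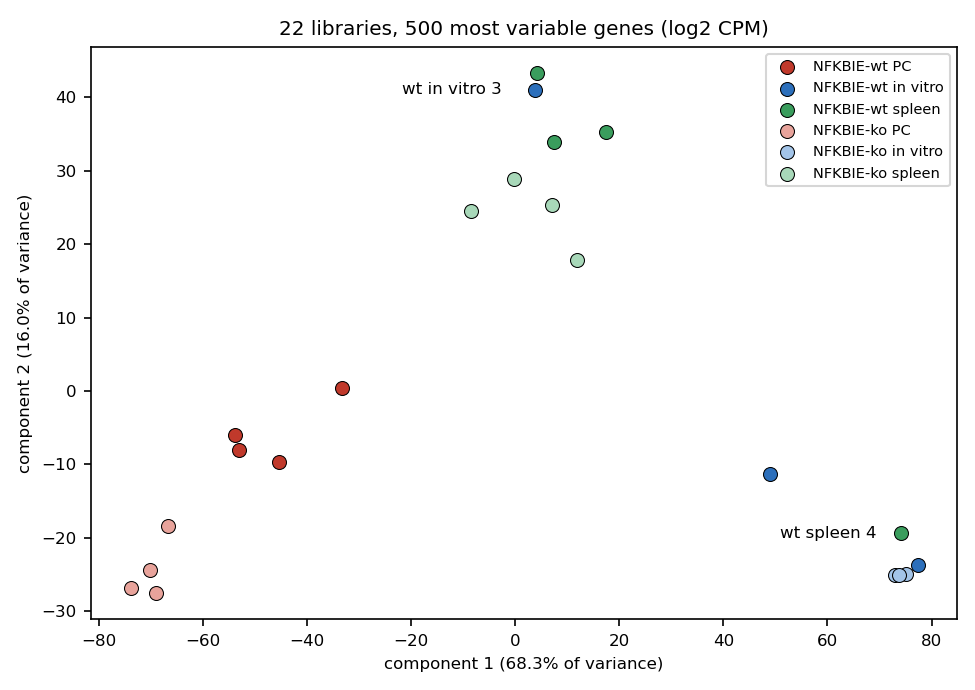
The first 2 principal components of the 22 libraries, over the 500 most variable genes on the log2 CPM scale, with 1 point per library coloured by group. The point of NFKBIE-wt in vitro 3 lies among the spleens, the point of NFKBIE-wt spleen 4 lies beside the cultures, and the 4 NFKBIE-wt PC libraries lie apart from both.

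In the PC, 698 genes were higher and 422 were lower than in culture, of 12571 tested, which is 5.55% and 3.36% of them. Without culture 3, 1432 genes were higher and 664 were lower of 12830 tested, or 11.2% and 5.18%. Of the 698 genes, 667 were also higher without culture 3, and of the 422, 398 were also lower. The genes gained moved further than the genes lost, with a median log2 fold change of 2.83 against -1.42. Of the gained genes, 393 had a mean under 1 CPM in cultures 1 and 2, whereas only 69 of the lost genes had a mean under 1 CPM in the PC, so most genes lost were lowered rather than absent. The 4 PC libraries lay above all 3 cultures for 695 of the 698 gained genes and below them for 393 of the 422 lost genes. Over all genes tested, such separation was seen upward in 17.6% and downward in 19.7%. With PC replicate 1 left out the counts were 305 higher and 242 lower, with PC replicate 3 left out 411 genes were higher, and with PC replicate 4 left out the counts were 319 and 240. The p-values measure the spread between recipients and cultures of 1 line.

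**Figure D2:**
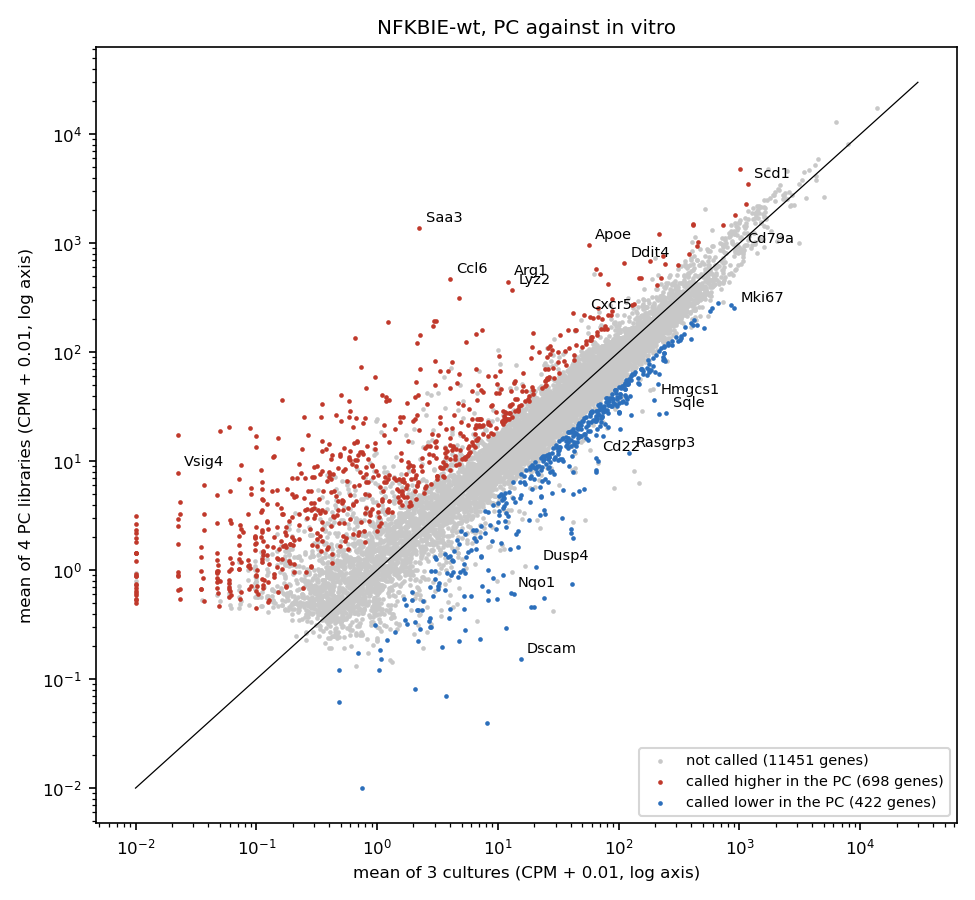
Mean level of each of the 12571 genes tested in the 3 NFKBIE-wt cultures (horizontal) and the 4 NFKBIE-wt PC libraries (vertical), in CPM plus 0.01 on log axes, with the line of equal levels. The 698 gained genes, in red, spread far above the line at low culture levels, while the 422 lost genes, in blue, follow the line more closely.

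Macrophage genes led the gain. Of the 24 markers of peritoneal and tissue macrophages, 19 were higher in the PC, none was lower and 5 did not pass, with a median log2 fold change of 4.87 beside -0.01 over all genes tested. Without culture 3, 22 were higher, with a median of 7.002, or 5.78 with the 6 genes that were at 0 in cultures 1 and 2 set to the bound that 3 counts per library give. In bulk RNA, more cells of a type and more RNA per cell cannot be told apart. The summed level of the 24 markers was 2417, 1204, 1715 and 2182 CPM in the PC and 270, 216 and 235 CPM in the cultures. Every marker had reads in every PC library, while 6, 14 and 0 of them were at 0 in cultures 1, 2 and 3.

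Saa3, an acute-phase apolipoprotein made by activated macrophages and stroma (chromosome 7, 46361422 to 46365576, GRCm39), was read at 1730, 416, 1016 and 2334 CPM in the PC and at 0.161, 0.0384 and 6.48 CPM in the cultures. PC replicate 2 was the lowest of the 4, and the highest culture, culture 3, was still far below it. The log2 fold change was 9.28 ± 1.69 (SE, edgeR adjusted p = 0.0128) and was 13.75 without culture 3. Lyz2, the lysozyme of myeloid cells, was read at 570, 214, 263 and 436 CPM in the PC and at 13.6, 0.192 and 25.5 CPM in the cultures, a log2 fold change of 4.86 ± 1.22 (edgeR adjusted p = 0.0326). Arg1, the arginase of alternatively activated macrophages, was read at 518, 197, 420 and 641 CPM in the PC and at 8.16, 0.691 and 27.4 CPM in the cultures. Apoe, the apolipoprotein through which macrophages release cholesterol, was read at 1239, 663, 800 and 1145 CPM in the PC and at 29.96, 77.5 and 63.1 CPM in the cultures. For all 4 genes the PC and culture libraries did not overlap, which a rule that picked them required.

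Among the genes with the largest fold changes were further genes of resident macrophages. Vsig4, a complement receptor, was read at 11.5, 0.954, 7.38 and 11.6 CPM in the PC, at 0 in cultures 1 and 2 and at 0.0374 CPM in culture 3, and the PC mean was at least 66.7-fold higher than cultures 1 and 2. Cbr2, a carbonyl reductase of tissue macrophages, was at 6.32 to 23.2 CPM in the PC and at no more than 0.0374 CPM in the cultures. Folr2, a folate receptor, reached 7.36 to 27.7 CPM, and C3ar1, the receptor for the complement fragment C3a, reached 15.3 to 49.4 CPM, while both stayed under 0.23 CPM in the cultures. Itgam, the CD11b integrin, was at 76.5 to 175 CPM against 2.80 to 8.91 CPM, and Cd68, a lysosomal protein of macrophages, at 44.6 to 130 CPM against 8.02 to 13.7 CPM. Ctsb, a lysosomal cathepsin, was at 261 to 691 CPM in the PC and 49.7 to 97.0 CPM in the cultures. Gata6, the transcription factor that defines large peritoneal macrophages, was read at 1.01, 0.159, 0.507 and 1.24 CPM in the PC, was at 0 in cultures 1 and 2 and at 0.15 CPM in culture 3, and was called only without culture 3 (edgeR adjusted p = 0.0626 with it and 0.0201 without).

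The 5 macrophage markers that did not pass with culture 3 in the fit were Adgre1, Csf1r, Icam2, Gata6 and Cd163. Adgre1 is the gene for F4/80. It was read at 65.8, 23.5, 56.9 and 57.5 CPM in the PC and at 23.5, 21.3 and 2.43 CPM in the cultures, and it did not pass with culture 3 (log2 fold change 1.74, edgeR adjusted p = 0.123) or without it (1.24, edgeR adjusted p = 0.053). Cybb, a subunit of the phagocyte NADPH oxidase that B cells also express, was at 111 to 178 CPM in the cultures and at 435 to 536 CPM in the PC.

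**Figure D3:**
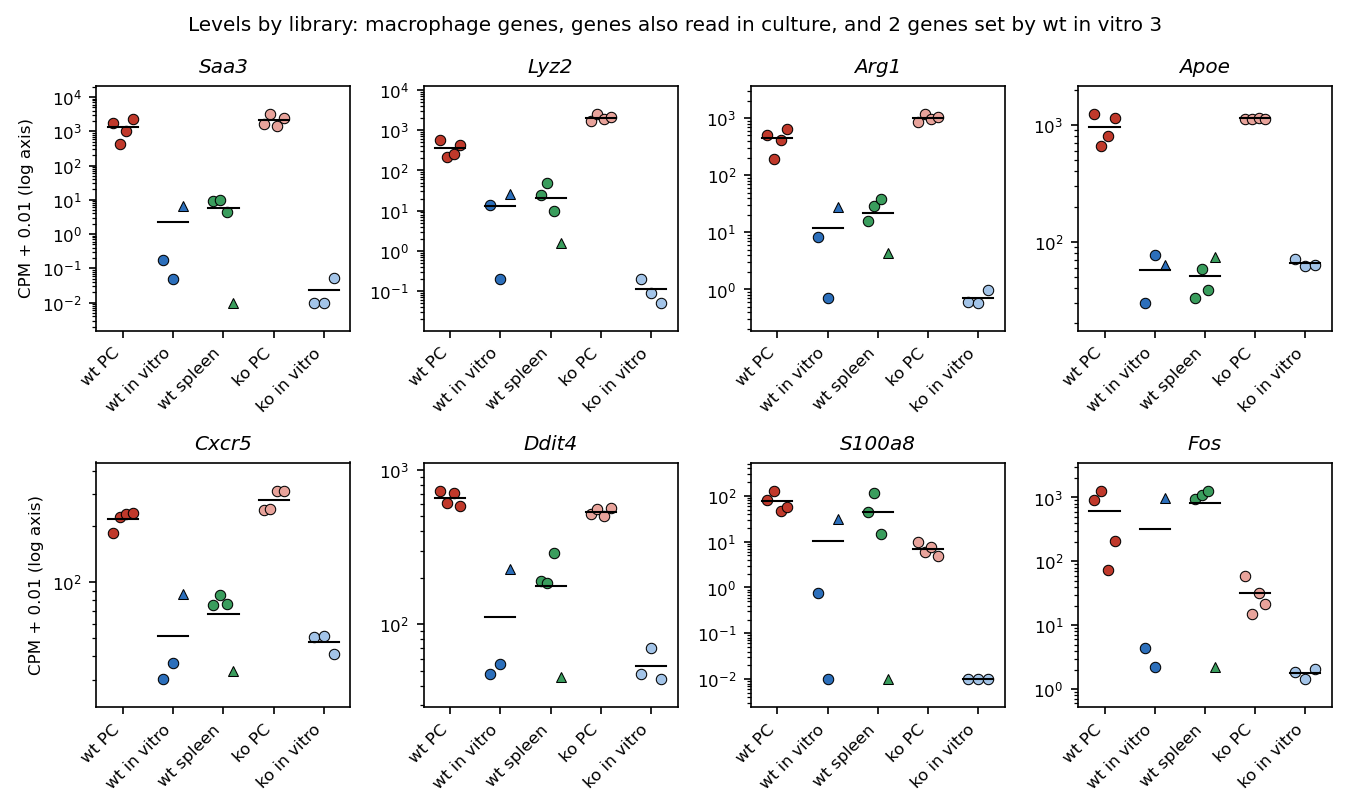
Levels of 8 genes by library, in CPM plus 0.01 on a log axis, with 1 point per library, a bar at each group mean, and triangles for NFKBIE-wt in vitro 3 and NFKBIE-wt spleen 4. Saa3, Lyz2, Arg1 and Apoe are high in the PC of both genotypes. Cxcr5 and Ddit4 vary less among the NFKBIE-wt PC libraries than those genes do. Both belong to the genes picked for an even level in PC replicate 2, so this follows in part from that choice. S100a8 and Fos are high in culture 3 and low in cultures 1 and 2.

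Some chemokine genes were higher in the PC. Of 21 chemokine and cytokine genes tested, 6 were higher with culture 3 in the fit (Ccl2, Ccl4, Ccl6, Ccl9, Cxcl13 and Cxcl16) and none was lower, and without culture 3, 11 were higher and 3 lower of 22. Ccl6, a chemokine that macrophages make constitutively, was read at 671, 218, 358 and 634 CPM in the PC and at 3.06, 0 and 8.95 CPM in the cultures. Ccl9, its neighbour on chromosome 11, was read at 78.7 to 266 CPM in the PC against 0 to 2.40 CPM. Cxcl13, which draws B-1 cells into the body cavities through Cxcr5, was read at 10.3, 1.67, 8.08 and 12.8 CPM in the PC and was at 0 in cultures 1 and 2 and at 0.2996 CPM in culture 3, so that the PC mean was at least 69.8-fold above cultures 1 and 2. Cxcr5, the receptor of Cxcl13, was read at 185, 225, 233 and 236 CPM in the PC and at 30.1, 37.0 and 86.4 CPM in the cultures, a log2 fold change of 2.14 ± 0.38 (edgeR adjusted p = 0.0107). Both the ligand and the receptor were thus higher in the PC. Their PC and culture libraries did not overlap, as was so for 695 of the 698 gained genes.

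Of 18 homing and adhesion genes, 5 were higher and none was lower, beside 5.55% and 3.36% of all genes tested. Ccr2, Gpr183 and Itgb2 were among the 5 beside Cxcr5. Without culture 3, 7 of 19 were higher and none was lower, beside 11.2% and 5.18% of all genes tested. Ccr2, a receptor of inflammatory chemokines, was at 20.65 to 30.9 CPM in the PC and at 3.61 to 9.37 CPM in the cultures. Itgb2, the common β2 integrin chain of leukocytes, was at 93.5 to 147 CPM against 53.7 to 61.9 CPM. Of 27 interferon-stimulated genes, 8 were higher and none lower with culture 3 in the fit, with a median of 1.03, and 9 were higher and 1 lower without it, with a median of 0.95. Irf7, the interferon-induced regulator of type I interferon genes, was read at 64.0, 25.1, 34.2 and 53.4 CPM in the PC and at 6.27, 4.53 and 7.49 CPM in the cultures. Oasl1, one of the oligoadenylate synthetase-like genes, was at 29.4 to 37.7 CPM against 2.30 to 13.4 CPM. The summed level of the interferon list did not separate the groups: it was 658 to 888 CPM in the PC and 1196, 398 and 393 CPM in the cultures.

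The 4 PC libraries were not equal in their macrophage transcripts. The level in PC replicate 2 over the mean of the other 3 PC libraries had a median of 0.405 over the 20 macrophage markers with at least 5 CPM in the PC, from 0.0939 for Vsig4 to 1.18 for Cybb. Over the 9773 genes tested with at least 5 CPM in the PC the median of this ratio was 1.02. The median was 0.768 over the 428 gained genes at that level. Of the 9773 genes, 156 were under 0.5 and 8729 lay between 0.8 and 1.25, beside 109 and 185 of the 428. A ratio between 0.8 and 1.25 was thus less common among the gained genes than over all genes tested at that level. This ratio was chosen after the values were seen and was given no test.

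A gained gene counted as of even level where PC replicate 2 was at 0.8 to 1.25 times the mean of the other 3. The spread among those 3 was not part of this rule. Of the protein-coding genes of even level without overlap, 48 were also read at 20 CPM or more in every culture. The 10 with the largest fold changes, picked after their values were seen, were Ddit4, Adgrd1, Nfam1, Cxcr5, Cd200, Ahnak, Cyp4f18, Cd2, Napsa and Plac8. Ddit4, a stress-induced inhibitor of mTORC1, was read at 732, 611, 704 and 587 CPM in the PC and at 47.9, 55.7 and 229 CPM in the cultures (log2 fold change 2.60 ± 0.59, edgeR adjusted p = 0.0238). Cd200, an immune-regulatory ligand present on chronic lymphocytic leukemia cells, was read at 166, 165, 144.5 and 169 CPM in the PC and at 32.7, 29.6 and 51.2 CPM in the cultures. Adgrd1, an adhesion G-protein-coupled receptor, was read at 416, 396, 498 and 380 CPM in the PC and at 75.8, 79.5 and 88.8 CPM in the cultures. Nfam1, which couples ITAM signals to B-cell development, was at 105 to 199 CPM against 25.9 to 44.3 CPM. Ahnak, a large scaffold protein under the plasma membrane, was at 580 to 799 CPM against 135 to 268 CPM.

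Further gained genes included genes of lipid handling and Cd79b, and which cells of these unpurified samples carried them was not tested. Scd1, the desaturase that makes monounsaturated fatty acids, was read at 3779, 3384, 3628 and 3119 CPM in the PC and at 628, 1069 and 1820 CPM in the cultures. Its list was not moved as a whole, since of 10 genes of fatty acid synthesis and desaturation 1 was higher and 1, Fads1, was lower. Without culture 3, 1 was higher and 2 were lower of 11. Acp5, tartrate-resistant acid phosphatase, was at 524 to 704 CPM against 19.3, 30.1 and 147 CPM, and Bmp6, a ligand of the BMP family, at 54.6 to 70.6 CPM against 3.95 to 14.3 CPM. Cd79b, the partner of Cd79a, was at 865 to 979 CPM against 329 to 589 CPM. Of 17 genes of lipid uptake, efflux and oxidation, 5 were higher (Lpl, Plin2, Nr1h3, Cpt1a and Apoe) and none was lower. Without culture 3, 7 of the 17 were higher and none was lower. Over all genes tested, 5.55% were higher with culture 3 and 11.2% without it. Cpt1a, which carries fatty acids into mitochondria, was at 153 to 186 CPM against 59.9 to 102 CPM, and Plin2, the coat protein of lipid droplets, at 83.2 to 130 CPM against 20.9 to 32.1 CPM. Vegfa, the vascular growth factor induced by hypoxia, was at 13.2 to 25.6 CPM against 3.63 to 9.33 CPM, but together with Ddit4 it made only 2 called genes of the 29 tested in the list of glycolysis and hypoxia.

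Lists of other cell types depended on culture 3. Of 10 neutrophil genes tested, none was called with culture 3, with a median log2 fold change of 2.29, whereas 9 were higher without it, with a median of 7.27. S100a8, a neutrophil calcium-binding protein, was read at 79.8, 129, 45.9 and 58.2 CPM in the PC, at 0.764 and 0 CPM in cultures 1 and 2, and at 30.7 CPM in culture 3. S100a9, its partner, was at 61.8 to 187 CPM in the PC, at 0.563 and 0 CPM in cultures 1 and 2, and at 76.0 CPM in culture 3. The summed level of the neutrophil list was 191 to 523 CPM in the PC, 4.67, 0.192 and 220 CPM in cultures 1, 2 and 3, and 66.6 to 420 CPM in spleens 1 to 3. Unlike the macrophage genes, the neutrophil genes were highest in PC replicate 2. Hbb-bs, a haemoglobin chain of red cells, was read at 1.82, 5.72, 0.585 and 24.3 CPM in the PC and at 0.241 and 0 CPM in cultures 1 and 2, but at 404 CPM in culture 3.

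Of 17 T-cell genes tested, Cd2 was higher and Cd3g was lower with culture 3 in the fit, with a median of -0.22, while without it 6 were higher and 2 lower, with a median of 1.045. The summed level of the T-cell list was 1412 to 1685 CPM in the PC and 415, 581 and 1370 CPM in the cultures. Cd3e, a defining chain of the T-cell receptor complex, was at 0.809, 0.238, 0.585 and 1.24 CPM in the PC and 0.684, 0.0384 and 2.55 CPM in the cultures. Cd3g was at 9.53 and 34.4 CPM in cultures 1 and 2, whose Cd3e was under 1 CPM, at 9.81 CPM in culture 3 and at 1.87 to 3.56 CPM in the PC. Cd2, which B cells can also express, was at 187 to 242 CPM in the PC against 28.2, 42.4 and 102 CPM. Of 9 mesothelial and stromal genes tested, 5 were higher (Krt8, Krt18, Dcn, Pdgfra and Sparc) and none was lower, and without culture 3, 8 of 10 were higher. The mesothelial marker Msln was at 0 in 3 of the 4 PC libraries and at 0.485 CPM in the other. The matrix proteoglycan Dcn was at 9.67, 1.43, 5.54 and 11.3 CPM in the PC and at 0, 0 and 0.562 CPM in the cultures. The part of these other cells in the gained genes was not tested.

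The remaining marker lists gave few calls with culture 3 in the fit. Of 8 dendritic-cell genes Clec10a, a lectin that macrophages share, was higher with culture 3, and 4 were higher and 1 lower without it. Clec10a was at 7.39 to 33.6 CPM in the PC against 0.121, 0 and 0 CPM. Of 8 erythroid and platelet genes Pf4, a platelet chemokine that macrophages also express, was called with culture 3, at 7.04 to 16.3 CPM against 1.29, 0 and 0.861 CPM, and the list's median went from -3.95 to 3.06 when culture 3 was left out. None of 10 genes of NK and cytotoxic cells, of 4 genes of eosinophils, mast cells and basophils, or of 9 plasma-cell genes was called by edgeR with culture 3 in the fit, whereas without it 3 and 1 were higher in the former lists and 3 were lower in the plasma-cell list. The median of the NK and cytotoxic list was 1.51 with culture 3 and 2.66 without it. Of 5 endothelial genes Lyve1, which macrophages share, was higher and Cdh5 was lower.

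Function lists beyond these are set beside all genes tested, of which 5.55% were called higher and 3.36% lower. Of 19 genes of the TGF-β and retinoic acid response, 5 were higher and Skil was lower, with Id2, an inhibitor of basic helix-loop-helix factors, at 75.7 to 116 CPM in the PC against 25.6 to 35.6 CPM. Of 17 Toll-like receptor and adaptor genes, 2 were higher, among them the receptor for single-stranded RNA Tlr7, at 14.5 to 20.4 CPM against 4.91 to 11.5 CPM. Of 18 genes of the amino acid and integrated stress response, 2 were higher, with the transcription factor Cebpb at 30.6 to 54.3 CPM against 4.87 to 12.1 CPM. Of 16 genes of the unfolded protein response and heat shock, 2 were higher, both of them the near-identical Hspa1a and Hspa1b, whose reads cannot be told apart with certainty. None of 20 genes of Myc-driven ribosome biogenesis was called by edgeR, and of 20 ribosomal protein genes 1 was higher. Without culture 3, the TGF-β list held 8 higher and 1 lower, and the Toll-like list 4 higher and 1 lower. The integrated stress list then held 2 higher and 2 lower, and the heat-shock list 3 higher and 1 lower. Over all genes tested without culture 3, 11.2% were higher and 5.18% lower.

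Some genes were called only without culture 3. They numbered 765 higher and 266 lower. By the rule of largest fold change, the gained ones included Slfn4, Klf4, Cd163, Fpr1 and Col3a1, all of them at 0 in cultures 1 and 2. Slfn4, an interferon-induced Schlafen gene of myeloid cells, was at 48.3, 37.4, 37.7 and 46.3 CPM in the PC and at 7.71 CPM in culture 3, at least 360-fold above cultures 1 and 2. Cd163, the haemoglobin scavenger receptor of macrophages, was at 4.53 to 11.3 CPM and at least 62.2-fold above cultures 1 and 2. Immediate-early genes, which respond within minutes to receptor signals, behaved likewise. Of 20, Ier3 was higher and Egr3 was lower with culture 3, against 10 higher and 2 lower without it. Fos was read at 917, 1273, 72.0 and 210 CPM in the PC and at 4.34, 2.19 and 969 CPM in the cultures. Culture 3 thus lay within the range of the PC, and Fos was called only against cultures 1 and 2 (log2 fold change 7.61, edgeR adjusted p = 0.0147).

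Cholesterol genes led the losses. Of 21 genes of cholesterol synthesis and uptake, 16 were lower in the PC, none was higher and 5 did not pass, with a median log2 fold change of -1.52. Without culture 3, 19 were lower, with a median of -1.90. The promoters of the genes that carried this change are shown first, since these genes are known to be switched as a unit through their promoters. They are the 250 bases before the start of transcription in RefSeq on GRCm38.p6, an earlier build than that of the counts, on the coding strand, with capitals for CCAAT or its reverse complement ATTGG, for TCACNCCAC, and for ATCACNNCA. The last 2 are short forms of the sterol response element that SREBP2 binds. Hmgcs1 (chr13:119690101-119690350, plus strand), Idi1 (chr13:8885356-8885605, plus strand), Insig1 (chr5:28071162-28071411, plus strand) and Cyp51 (chr5:4104698-4104947, minus strand) are given.
Hmgcs1: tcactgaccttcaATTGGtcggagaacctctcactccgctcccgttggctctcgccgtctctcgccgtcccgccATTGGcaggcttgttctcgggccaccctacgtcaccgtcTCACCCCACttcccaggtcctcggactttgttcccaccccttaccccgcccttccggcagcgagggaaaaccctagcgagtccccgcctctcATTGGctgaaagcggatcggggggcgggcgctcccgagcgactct
Idi1: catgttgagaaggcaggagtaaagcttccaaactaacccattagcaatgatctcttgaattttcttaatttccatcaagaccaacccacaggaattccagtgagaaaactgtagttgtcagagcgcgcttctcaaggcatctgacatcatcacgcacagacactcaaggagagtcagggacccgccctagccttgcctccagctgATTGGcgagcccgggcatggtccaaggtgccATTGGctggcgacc
Insig1: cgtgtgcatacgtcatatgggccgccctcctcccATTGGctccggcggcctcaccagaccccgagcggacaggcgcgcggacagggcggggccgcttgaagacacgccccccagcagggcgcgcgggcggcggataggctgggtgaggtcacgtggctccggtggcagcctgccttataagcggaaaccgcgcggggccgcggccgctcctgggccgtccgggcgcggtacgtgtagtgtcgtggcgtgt
Cyp51: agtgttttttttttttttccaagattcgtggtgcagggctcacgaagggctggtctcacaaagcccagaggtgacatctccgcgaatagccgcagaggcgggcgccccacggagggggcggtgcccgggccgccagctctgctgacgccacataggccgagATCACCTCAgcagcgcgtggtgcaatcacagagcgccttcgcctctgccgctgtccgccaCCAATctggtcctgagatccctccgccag

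Of the 22 listed cholesterol genes, 14 matched the promoter table, and all 14 held CCAAT on either strand in these 250 bases, beside 37.5% of the 27025 genes with a promoter. ATCACNNCA was in 3 of the 14 (Cyp51, Msmo1 and Srebf2) and in 2.64% of all genes, and TCACNCCAC was in Hmgcs1 and in 1.22% of all genes. A match is a stretch of letters and was not read as a bound site.

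The levels of the genes named next set cultures 1 and 2 apart from culture 3 and from the PC. Hmgcs1, which makes HMG-CoA (chromosome 13, 120151915 to 120170470, GRCm39), was read at 32.2, 40.1, 37.0 and 36.2 CPM in the PC, at 250 and 302 CPM in cultures 1 and 2, and at 41.4 CPM in culture 3. Its log2 fold change was -2.40 ± 0.57 (SE, edgeR adjusted p = 0.0274) and -2.87 ± 0.12 without culture 3. Sqle, the squalene epoxidase, was read at 28.1, 28.2, 26.7 and 27.9 CPM in the PC and at 360, 358 and 27.6 CPM in the cultures, so that culture 3 lay within the range of the PC while the mean of cultures 1 and 2 was 12.9-fold above it. Idi1, the isopentenyl diphosphate isomerase, was read at 25.3, 29.8, 24.6 and 28.4 CPM in the PC and at 274, 326 and 41.6 CPM in the cultures. Insig1, which holds SREBP back when sterol is plentiful and is itself induced by SREBP, was at 22.9 to 27.6 CPM in the PC against 212, 135 and 33.7 CPM. Cyp51, the lanosterol demethylase, was at 72.2 to 92.3 CPM against 404, 299 and 49.9 CPM, which was called only without culture 3. The summed level of the 21 measured genes was 754 to 810 CPM in the PC, 3425 and 3489 CPM in cultures 1 and 2, and 736 CPM in culture 3. The change was not shared by oxidative phosphorylation, where none of 22 genes was called in either direction and the median was -0.08.

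**Figure D4:**
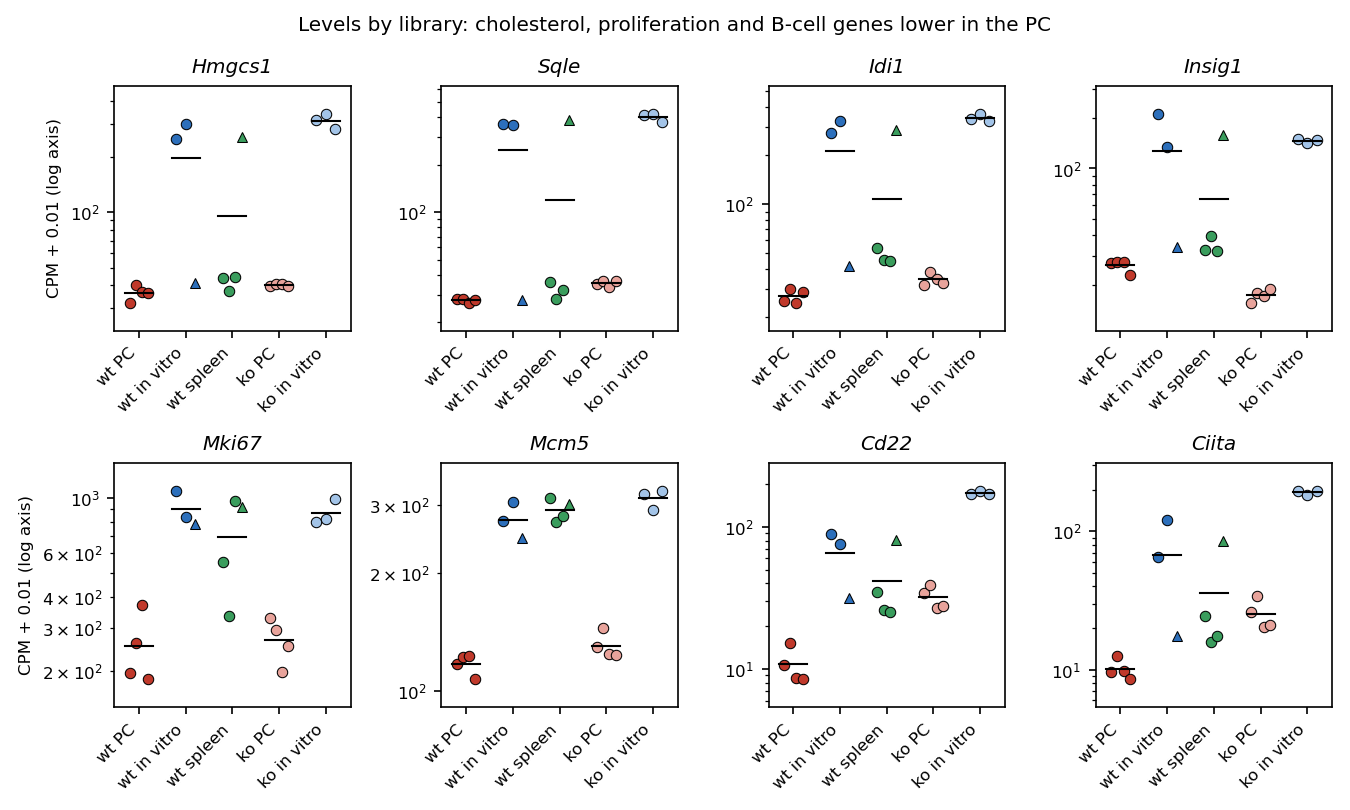
Levels of 8 genes by library, in CPM plus 0.01 on a log axis, with 1 point per library, a bar at each group mean, and triangles for NFKBIE-wt in vitro 3 and NFKBIE-wt spleen 4. Hmgcs1, Sqle, Idi1 and Insig1 are high in cultures 1 and 2, in spleen 4 and in the NFKBIE-ko cultures, while Mcm5 is low in the PC of both genotypes and high in all 3 cultures and all 4 spleens of NFKBIE-wt.

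Proliferation genes were lower in the PC whether or not culture 3 was in the fit. Of 24 cell-cycle genes, 15 were lower, none was higher and 9 did not pass, with a median log2 fold change of -1.23, and without culture 3, 17 were lower and 1 higher, with a median of -1.38. The promoters of 3 of them are shown in the same way, with capitals for CCAAT and for TTTGAA, the core of the CHR element, or their reverse complements. Mki67 (chr7:135716380-135716629), Top2a (chr11:99024190-99024439) and Cdk1 (chr10:69352913-69353162) all lie on the minus strand of GRCm38.p6.
Mki67: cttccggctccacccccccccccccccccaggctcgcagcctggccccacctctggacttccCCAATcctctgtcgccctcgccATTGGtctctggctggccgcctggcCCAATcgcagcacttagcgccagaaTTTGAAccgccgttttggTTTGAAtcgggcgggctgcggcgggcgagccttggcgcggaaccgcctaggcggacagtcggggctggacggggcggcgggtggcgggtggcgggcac
Top2a: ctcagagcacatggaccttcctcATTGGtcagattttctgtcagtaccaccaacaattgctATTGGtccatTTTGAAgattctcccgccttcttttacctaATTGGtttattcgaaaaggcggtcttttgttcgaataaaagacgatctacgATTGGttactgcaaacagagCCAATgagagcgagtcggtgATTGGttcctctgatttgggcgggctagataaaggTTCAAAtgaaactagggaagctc
Cdk1: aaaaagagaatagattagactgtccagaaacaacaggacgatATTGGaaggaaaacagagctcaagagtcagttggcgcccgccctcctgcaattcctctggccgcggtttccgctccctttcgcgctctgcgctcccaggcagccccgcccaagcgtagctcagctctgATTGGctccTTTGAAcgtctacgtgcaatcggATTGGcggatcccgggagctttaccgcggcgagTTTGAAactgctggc

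Of the 24 cell-cycle genes, 18 matched the promoter table. CCAAT was in 14 of the 18 and TTTGAA in 6, beside 37.5% and 18.3% of all genes with a promoter. For comparison, GAAANNGAA, the core of the interferon-stimulated response element, was in 12 of the 20 interferon-stimulated genes that matched and in 8.18% of all genes, on either strand.

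Mki67, which encodes the Ki-67 protein of cycling cells, was read at 197, 259, 371 and 186 CPM in the PC and at 1070, 839 and 789 CPM in the cultures, so the highest PC library was below the lowest culture. Its log2 fold change was -1.79 ± 0.26 (SE, edgeR adjusted p = 0.00557). Top2a, the topoisomerase of dividing cells, was read at 203, 305, 363 and 219 CPM in the PC and at 1037, 930 and 589 CPM in the cultures. Ccnb1, the mitotic cyclin B1, was at 62.0 to 94.8 CPM against 128 to 231 CPM, and Cdk1, its kinase, at 64.0 to 75.7 CPM against 94.6 to 203 CPM. Of 24 genes of DNA replication and nucleotide synthesis, 8 were lower and none was higher, with a median of -0.95. Without culture 3, 11 were lower and none was higher. Over all genes tested, 3.36% were lower with culture 3 and 5.18% without it. Mcm5, a subunit of the replicative helicase, was read at 118, 122, 123 and 107 CPM in the PC and at 273, 305 and 246 CPM in the cultures (log2 fold change -1.19 ± 0.11, edgeR adjusted p = 0.00213). Rrm2, the regulated subunit of ribonucleotide reductase, was at 76.4 to 95.7 CPM against 181 to 261 CPM. In these genes culture 3 was above every PC library but was the lowest of the 3 cultures. Myc was read at 404, 438, 436 and 405 CPM in the PC and at 342, 343 and 690 CPM in the cultures, and was not called.

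Single genes of the B cell were lower, while most members of their lists did not pass. Cd22, an inhibitory co-receptor of the B-cell receptor, was read at 10.7, 15.2, 8.62 and 8.47 CPM in the PC and at 89.4, 75.2 and 31.4 CPM in the cultures, a log2 fold change of -2.56 ± 0.37 (edgeR adjusted p = 0.00592). Rasgrp3, which links the receptor to Ras, was read at 10.2, 15.7, 10.5 and 11 CPM in the PC and at 215, 133 and 18.1 CPM in the cultures. Mef2b, a transcription factor of germinal-centre B cells, was at 6.27 to 9.58 CPM against 69.1, 114 and 13.6 CPM, and Hdac9, a class IIa histone deacetylase, at 3.84 to 6.60 CPM against 78.2, 41.9 and 20.7 CPM. Cd5, the surface marker of B-1 and chronic lymphocytic leukemia cells, was at 14.1 to 19.6 CPM against 22.7 to 43.6 CPM, and its call was lost without culture 3 (log2 fold change -0.94). Of 13 B-lineage genes, Cd22 and Cd5 were lower, Cd79b was higher and the other 10 did not pass. None of 18 B-cell receptor signalling genes and none of 20 NF-κB genes, feedback targets included, was called by edgeR with culture 3 in the fit, and without it the calls were 1 higher and 2 lower in the former list and 1 higher and 3 lower in the latter.

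Ciita, the master regulator of MHC class II genes, was read at 9.59, 12.4, 9.76 and 8.51 CPM in the PC and at 65.5, 121 and 17.6 CPM in the cultures, a log2 fold change of -2.71 ± 0.56 (edgeR adjusted p = 0.0184). Of 11 class II genes it was the only one lower with culture 3 in the fit, while Ctss, a cathepsin that macrophages express too, was higher. Without culture 3, 6 of the 11 were lower and none was higher. H2-Ab1, a class II chain, was at 191 to 244 CPM in the PC and at 378, 826 and 221 CPM in the cultures. None of 12 class I genes was called with or without culture 3, and their medians were 0.56 and 0.42.

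The largest losses fell on genes of low level in the PC. Dusp4, a phosphatase that turns off MAP kinases, was read at 0.768, 0.795, 1.249 and 1.46 CPM in the PC and at 25.8, 25.5 and 11.01 CPM in the cultures. Nqo1, a quinone reductase and classical target of the oxidative stress regulator NRF2, was at 0.546 to 0.728 CPM against 15.6, 21.5 and 1.42 CPM, and Txnrd1, a thioredoxin reductase, at 78.3 to 100.4 CPM against 316, 279 and 99.9 CPM. Of the same list of 16 oxidative stress genes, Hmox1, the haem oxygenase, was higher, at 104 to 233 CPM against 25.1 to 67.0 CPM, so that the list held 2 genes called in each direction. Axin2, a feedback inhibitor and target of Wnt signalling, was at 0.234 to 0.358 CPM against 2.49, 31.3 and 0.899 CPM, and Cd276, the B7-H3 checkpoint ligand, at 0.121 to 0.385 CPM against 3.94, 15.9 and 1.27 CPM. Dscam, a neuronal adhesion molecule, was at no more than 0.234 CPM in the PC and at 6.80, 38.9 and 0.412 CPM in the cultures. For Axin2, Cd276 and Dscam culture 2 was several times above both other cultures. Bcl2l11, the pro-apoptotic BIM gene, was at 36.7 to 51.5 CPM against 71.2 to 153 CPM and was the only called gene of 14 tested in the BCL2 family.

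**Figure D5:**
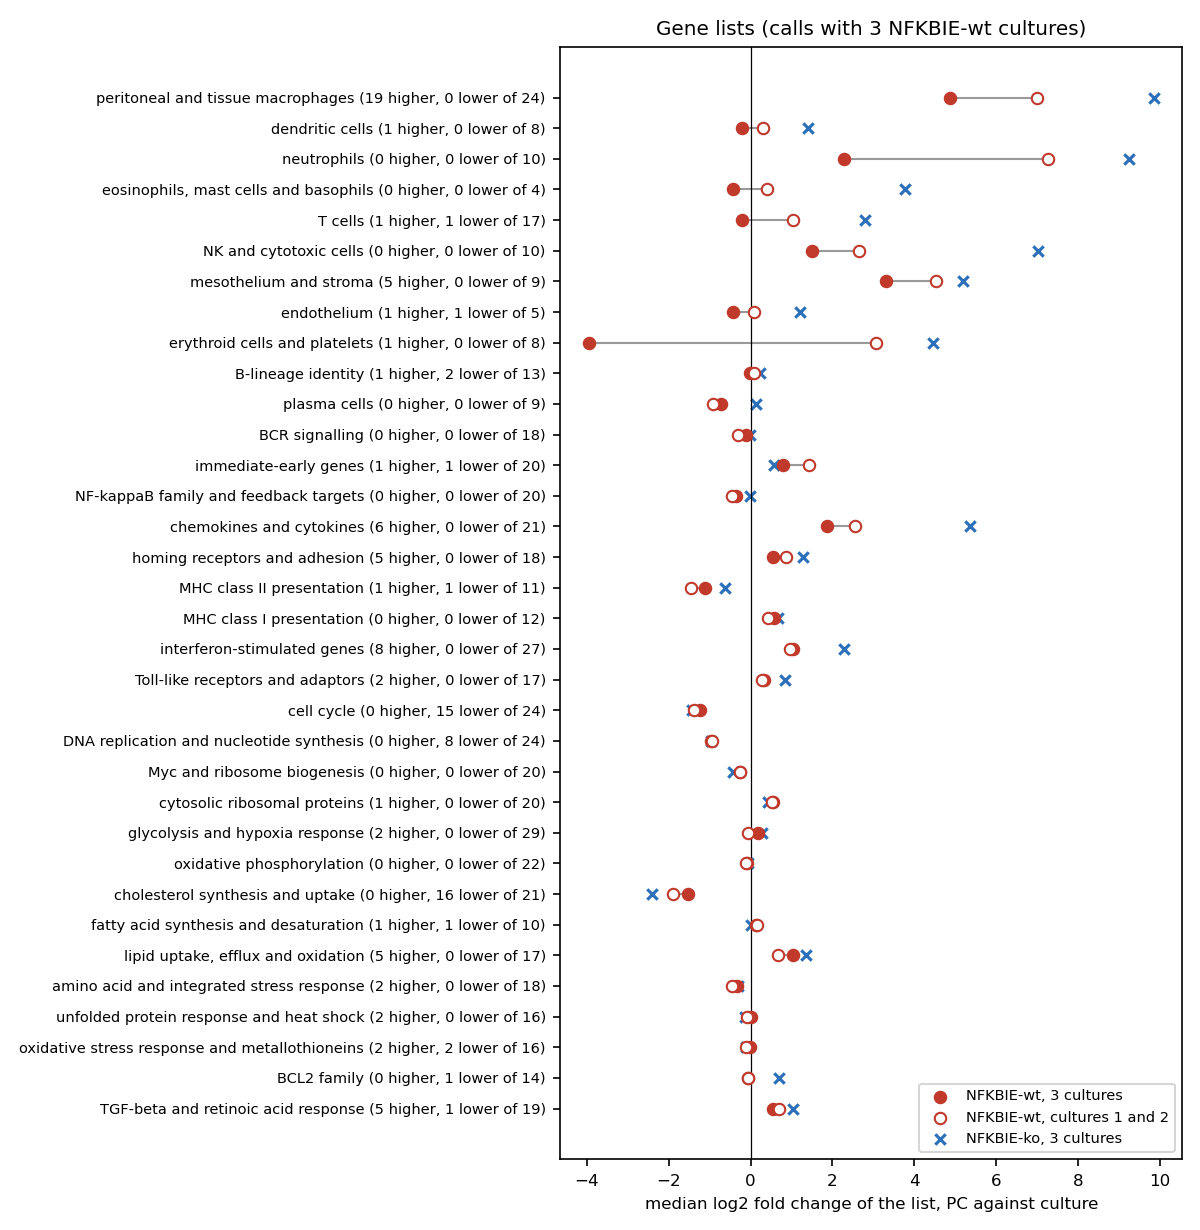
Median log2 fold change, PC against culture, of 34 gene lists for NFKBIE-wt with 3 cultures (filled), for NFKBIE-wt with cultures 1 and 2 (open) and for NFKBIE-ko (crosses), with the number of called members in the labels. The macrophage list lies at 4.87 and the cholesterol list at -1.52 with 3 cultures, and the neutrophil and erythroid lists are the ones that culture 3 moves furthest.

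The spleen places these changes beside a second site in the mouse. The comparison of PC and spleen shares the PC libraries, so only its own values are given. Against the spleen, 980 genes were higher and 397 lower in the PC of 12370 tested, or 7.92% and 3.21%. Macrophage markers were higher than in the spleen in 22 of 23 tested. The summed CPM of the cholesterol genes was 736 to 798 in spleens 1 to 3 beside 754 to 810 in the PC, and 3339 in spleen 4. Of the 21, 1 was lower than in the spleen with a median of -0.83, and none with a median of -0.11 when spleen 4 was left out. Cell-cycle genes were below the spleen as well, with 12 of 24 lower, 1 higher and a median of -1.02, or 10 lower, none higher and -0.92 without spleen 4. Their summed level was 2000 to 2676 CPM in the PC, 3305 to 5145 CPM in the 4 spleens and 4071 to 5484 CPM in the cultures. The summed cholesterol ranges of the PC and spleens 1 to 3 thus overlapped, whereas the summed cell-cycle range of the PC lay below every spleen and every culture.

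The NFKBIE-ko samples give the same contrast in libraries that it does not share. In NFKBIE-ko, 2205 genes were higher and 738 lower in the PC than in culture of 12721 tested, or 17.3% and 5.8%. Of the 698 genes gained in NFKBIE-wt, 592, or 84.8%, were also gained in NFKBIE-ko, which is 26.8% of the NFKBIE-ko list. None of the 698 was lower in NFKBIE-ko. Of the 422 genes lost, 319, or 75.6%, were also lost, which is 43.2% of the NFKBIE-ko list, while 4 were higher. All 24 macrophage genes were higher and 20 of 21 cholesterol genes were lower in NFKBIE-ko. Sqle fell from a mean of 402 CPM in vitro to 35.6 CPM in the PC, and Mki67 from 872 to 268 CPM. Lyz2 rose from 0.102 to 2055 CPM.

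The PC-culture difference itself differed between genotypes for 42 genes with a higher value in NFKBIE-wt and 456 with a lower value, or 0.318% and 3.45% of 13213 tested. Without culture 3 the counts were 75 and 415, of which 33 and 260 genes were the same. The counts fell to 4 and 42 without NFKBIE-ko culture 1 and reached 126 and 1007 without NFKBIE-wt culture 2. Pcdh9, a protocadherin, was at 68.5, 77.5, 78.8 and 50.2 CPM in the NFKBIE-wt PC and at 77.3, 56.4 and 64.6 CPM in culture, whereas its NFKBIE-ko means were 15.9 CPM in the PC and 82.8 CPM in culture (difference 2.45, edgeR adjusted p = 0.000424). Dusp5, a phosphatase of ERK, was lower in the PC in both, at 88.2 to 115 CPM against 146 to 291 CPM in NFKBIE-wt and at means of 32.8 against 266 CPM in NFKBIE-ko. Hexa, a lysosomal hexosaminidase, was at 102 to 119 CPM in the NFKBIE-wt PC and 80.3 to 80.9 CPM in culture, and at means of 213 and 74.7 CPM in NFKBIE-ko. The summed level of the macrophage markers was 4921 to 6921 CPM in the NFKBIE-ko PC beside 1204 to 2417 CPM in the NFKBIE-wt PC, and its part in these differences was not tested.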

How the data were processed

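RNA was sequenced from 22 samples, of which the 4 NFKBIE-wt PC and 3 NFKBIE-wt in vitro libraries are compared here. The deposited values are estimated counts per transcript, which the authors made with Salmon 1.8 on GRCm39 per the study's methods and the submitters' processing notes. The table holds 62492 transcripts with a value in at least 5 samples, and 69.5% of values are not whole. They were summed per gene through the transcript names (62147 matched, and the other 345, holding 0.619% of counts, were left out) and rounded, giving 17023 genes.

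The test was edgeR 4.0.16 (quasi-likelihood, TMM, filterByExpr) in R 4.3.3 on the 7 samples, two-sided with Benjamini-Hochberg adjustment, and a call needed an adjusted p under 0.05 and a log2 fold change beyond 1. limma 3.58.1 (voom) and DESeq2 1.42.0 were alternatives. Scripts were tested on simulated counts for this comparison, where 199 of 200 genes changed by a log2 fold change of 2 were recovered at a dispersion of 0.1 (10 false calls of 12564 genes) and 43 at 0.3 (0 false calls of 12613 genes). Levels are CPM with TMM factors over the 22 libraries, and 3 counts per library, the limit used for a count of 0, are 0.122 CPM in the PC and 0.118 CPM in cultures 1 and 2, which covers counting error only. Estimated counts can be split between near-identical transcripts.

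Members, 34 gene lists and rules were chosen with earlier results of these data known. Genes were named by rule among protein-coding genes: the 12 largest fold changes per direction without overlap where the higher group reached a mean of 5 CPM, the 12 where both groups reached it, the 6 per direction called only without culture 3, the 4 called members of each list with the highest level, defining markers, and the 4 per direction with the smallest adjusted p for the difference between genotypes. Called members named without values complete a list's count. Fos, S100a9, H2-Ab1, Cyp51, Cdk1 and the genes of even level in the PC were chosen after their values were seen. Some genes the rule names are not reported here.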

Additional observations from a re-analysis of the deposited data

Results flagged for a closer look

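In groups of 4 PC values, a library was flagged by Dixon's ratio, the gap to its nearest value over the range. Such a ratio can flag small differences. Of 127 groups checked, 12 held a flagged library, where chance gives about 1 in 20. For single genes these were Itgam at 76.49 CPM and Rasgrp3 at 15.66 CPM in PC replicate 2, Cd200 at 144.5 CPM and Cdk1 at 75.67 CPM in PC replicate 3, Acp5 at 704.4 CPM in PC replicate 1, and Insig1 at 22.85 CPM in PC replicate 4. Among summed lists, PC replicate 2 was apart for dendritic-cell genes (95.45 CPM), B-lineage genes (4487 CPM), NF-κB genes (1907 CPM) and genes of the TGF-β and retinoic acid response (602.7 CPM). PC replicate 4 was apart for NK and cytotoxic genes (61.74 CPM) and erythroid and platelet genes (92.93 CPM). Some of these gaps were small: the dendritic-cell sum was 99.95 to 100.7 CPM in the PC libraries other than replicate 2.

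Of 101 genes checked, 24 had a PC-culture log2 difference that differed between genotypes by the edgeR test of the difference itself. Of these 24, 19 had the lower value in NFKBIE-wt. The 101 include 8 genes picked for their small adjusted p in this same test, so the calls of those 8 were fixed beforehand. Over all 13213 genes tested, 0.318% were called with a higher value in NFKBIE-wt and 3.45% with a lower value. The differences below are NFKBIE-wt minus NFKBIE-ko, with culture 3 in the fit. Among macrophage genes they were -9.38 for Lyz2, -9.34 for Ccl6, -7.74 for Ccl9, -5.28 for Arg1, -2.41 for Itgam, -1.86 for Ctsb and -1.52 for Cd68. They were -3.88 for Lpl, -1.18 for Plin2, -2.11 for Cebpb, -1.57 for Itgb2 and -1.34 for Ahnak. The stromal and epithelial genes Krt8 and Sparc differed by -3.24 and -3.04, and the T-cell gene Cd3e by -6.13. Without culture 3, the calls of Ccl9, Cd68 and Cd3e were among those lost, at edgeR adjusted p = 0.0817, 0.0517 and 0.053. Ahnak also lost its call, with a difference of -0.94, while Ccl6 and Arg1 kept theirs. In the NFKBIE-ko cultures Ccl6, Ccl9 and Cd3e reached no more than 0.0375, 0.0413 and 0.0826 CPM, near the limit of counting. The mean of Lyz2 in these cultures was near that limit too. Arg1 was at 0.578 to 0.95 CPM there, beside 0.691 to 27.4 CPM in the NFKBIE-wt cultures. The differences of these genes thus take in unlike culture levels as well as PC levels. Adgrd1 was the only one of the 10 named genes of even level in the PC called with a larger rise in NFKBIE-wt, by 1.33.

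Among the 8 genes with the smallest adjusted p for this difference, the values were 2.45 for Pcdh9, 1.96 for Dusp5, 1.42 for Gas2 and 1.00 for 2410002F23Rik, and -8.13 for Klhl13, -1.50 for Inpp4a, -1.39 for Gm6377 and -1.06 for Hexa. Klhl13, a substrate adaptor of a ubiquitin ligase, had means of 0.924 CPM in the PC and 5.30 CPM in culture in NFKBIE-wt, against 4.10 and 0.0792 CPM in NFKBIE-ko.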

How the results depend on the processing

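With PC or culture libraries left out one at a time, the NFKBIE-wt counts ran from 305 to 1432 higher and 240 to 664 lower, with the upper ends reached without culture 3. The NFKBIE-ko counts ran from 2098 to 2273 and 699 to 738, those of the genotype difference from 4 to 126 and 42 to 1007, and those against the spleen from 692 to 1265 and 323 to 558. A stricter filter on low counts gave 445 higher genes in NFKBIE-wt, of 9863 tested. In NFKBIE-ko it gave 1238 higher and 481 lower of 10119, and against the spleen 493 and 238 of 9701. Fitting all 22 samples gave 727 lower genes in NFKBIE-wt, and DESeq2 without culture 3, added after the data were seen, gave 1649 and 707. For the genotype difference DESeq2 gave 74 and 953 and voom gave 68 higher genes. The cause of these shifts was not tested.

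The replicate numbers did not pair the samples: residuals of same-numbered NFKBIE-wt PC and in vitro libraries correlated at -0.048, 0.119 and -0.035. With a replicate block, 15 genes were higher and 0 lower in NFKBIE-wt by edgeR (906 and 360 at an unadjusted p under 0.05), and 14 and 73 for the genotype difference.

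Of the 76 called genes among the 93 named, 2 (Cd5 and Ctss) lost their call without culture 3, 68 under the replicate block, and 14 to 29 when another library was left out. Not called, and reversed in direction, were Hbb-bs (3.03 by voom, 0.98 with the replicate block, 6.14 by DESeq2 and 5.48 by voom without culture 3; -5.61 to 6.09 over libraries left out), Myc (0.21, 0.02, 0.34 and 0.34; -0.26 to 0.34) and Cd3e (0.46 by voom, 1.06 by DESeq2 and 1.65 by voom without culture 3; -1.13 to 1.04).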
